A study of Mus musculus with 28 samples.

Results

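The miRNAs described here are 7 entries of the mouse miRNA catalogue listed as mmu-mir-3470a, mmu-mir-3470b, mmu-mir-3471, mmu-mir-3473a, mmu-mir-3473b, mmu-mir-3473e and mmu-mir-3473f (miR-3470a and so on from here), out of 607 miRNAs listed in at least 1 of the 4 deposited tables. They were taken by name, but the names were selected on measured values of these libraries, namely their covariation within a table and their difference between ozone and air, so both features are given below as descriptions. All 7 were listed in the tables for co-ex females, KO females and KO males, and 6 in the table for co-ex males, where miR-3473a was not listed. The filter on low values asked for a normalized value of 5 or more, in no fewer libraries than the smaller of both exposure groups had. The number of members that passed was 6 in co-ex females, 5 in co-ex males, 5 in KO females and 6 in KO males.

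The study asked how surfactant protein A (SP-A) and sex shape the miRNAs of alveolar macrophages (AM) after oxidative stress from ozone (O3). All mice lacked mouse SP-A, and their strain is C57BL/6 in the labels and C57BL/6J in the study's methods. KO mice carried nothing in its place, and co-ex mice carried the human SP-A1 and SP-A2 transgenes (variants 6A2 and 1A0). Mice of 12 weeks breathed filtered air (FA) or O3 for 3 h, and AM were lavaged 4 h later, giving 4 libraries for a co-ex group and 3 for a KO group. Females were estrous-synchronized. In such bulk samples fewer cells of a type and less RNA per cell cannot be told apart.

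A mature miRNA guides the silencing complex through its seed, the stretch near its 5′ end that pairs with target mRNAs. Short interspersed elements (SINEs) are small mobile repeats copied by RNA polymerase III, and the mouse genome carries them in very large numbers, above all the B1 and B2 families. The letters of miR-3473b lie at the start of the B2 element and those of miR-3470b on the reverse strand of B1, so a short RNA with either sequence can in principle come from many places in the genome.

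The mature sequences of 6 of the 7 members were found in RefSeq (GRCm38.p6) and are shown because the likeness of the members lies in their letters. Capitals mark the seed, bases 2 to 8.
miR-3470b: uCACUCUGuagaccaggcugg
miR-3471: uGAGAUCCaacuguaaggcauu
miR-3473a: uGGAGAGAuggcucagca
miR-3473b: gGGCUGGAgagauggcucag
miR-3473e: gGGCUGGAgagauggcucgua
miR-3473f: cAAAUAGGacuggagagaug

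miR-3473b and miR-3473e carried the same seed, GGCUGGA, which no other of 1679 mature mouse miRNAs in the table had. They also shared their first 18 bases, and miR-3473a shared 16 bases with miR-3473b, starting further in, so its seed was a different one. miR-3473f shared 11 bases with miR-3473b, at its 3′ end and outside the seed. miR-3470b and miR-3471 had no stretch of 8 or more bases in common with any miR-3473 member. The members therefore held 5 different seeds among the 6 sequences, and the common name miR-3473 did not stand for a common seed.

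Each mature sequence was searched, on both strands, in the spliced transcripts of 53248 genes of GENCODE M21, miRNA genes left out. The sequence of miR-3470b was present whole in transcripts of 1016 genes, the largest number among the 1679 mature miRNAs. miR-3473b came next with 726 genes, miR-3473a stood 4th with 281 and miR-3471 stood 5th with 61. Of all mature miRNAs, 75.5% matched no gene and 0.298% matched over 10. The sequences of miR-3473e and miR-3473f matched none in full, but the first 18 bases of miR-3473e, which are those of miR-3473b, were in transcripts of 826 genes. A read that ended before the last bases could not be assigned to miR-3473b or miR-3473e by its letters, and how reads with several matches were counted is not given in the sources used here.

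The precursor of miR-3473e lies on GRCm38 at chr5:31667231-31667340, minus strand, in an intron of Rbks on the same strand. That of miR-3473f lies at chr1:106546496-106546631, minus strand, in an intron of Bcl2 on the same strand, and that of miR-3473a at chrX:162874918-162874995, minus strand, in an intron of Syap1 on the same strand. The precursors of miR-3470b (chr16:44013852-44013977, plus strand) and miR-3473b (chr10:41670739-41670793, plus strand) lie in introns of Gramd1c and Ccdc162 on the opposite strand. miR-3470a (chr6:83090311-83090387, minus strand) and both copies of miR-3471 (chr4:10845500-10845630, minus strand, and chr4:3537090-3537191, plus strand) lie between genes. No members sat within one cluster, and no member lay in an exon or a UTR.

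The co-ex libraries held 41542 to 891030 miRNA reads and the KO libraries 111080 to 2082034. The tables were normalized separately and the genotypes carry different ranges of library codes, so genotype and table cannot be told apart. Each table also holds a single sex, and the co-ex males and co-ex females carry different ranges of codes. Sex and table therefore cannot be told apart either. In the KO tables the codes also go in part with exposure. KO female FA replicates 2 and 3 and KO male FA replicate 3 carry higher codes than every O3 library of their table. What the codes stand for is not given in the sources used here, and their part in the change after O3 was not tested. Between tables, levels are given as RPM, the reads of a miRNA per 1000000 miRNA reads of its library, and tested on whole reads with the scaling of edgeR. The 6 myeloid marker miRNAs fixed for AM, among them miR-223-3p and miR-142a-3p, summed to between 42505 and 223060 RPM in every library, with at most 1 of them at 0. The 5 red cell markers, such as miR-451a, summed to between 993 and 137372 RPM. The 11 epithelial markers, mainly the miR-200 and miR-34/449 families, summed to between 1685 and 50116 RPM, with at most 4 of them at 0. Among the KO males in FA, replicate 3 stood apart, with 28327 RPM in the epithelial list against 2246 and 2727 in the others.

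The members made up a share of the libraries that ran from 0.0135% to 5.87%. In co-ex females they took 5.0% (95% Wilson interval 4.88 to 5.13), 1.04%, 1.99% and 4.06% of reads after FA and 5.87% (5.65 to 6.10), 3.91%, 1.39% and 1.46% after O3. In co-ex males they took 0.117%, 0.0781%, 0.468% and 0.282% after FA and 0.294%, 2.15%, 0.155% and 1.19% after O3. All 8 co-ex female libraries were above every library of the KO mice, and the co-ex males ran from the KO range into that of co-ex females. This separation rested on miR-3473e. Without it, co-ex female FA replicate 2 and O3 replicates 3 and 4 were at 0.118%, 0.243% and 0.240%. KO female O3 replicate 2 was then at 0.295%, above these, while the remaining co-ex female libraries stayed above every KO library.

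In KO females the members took 0.0165% (0.0141 to 0.0192), 0.0465% and 0.0308% of reads after FA and 0.202%, 0.355% and 0.187% after O3. In KO males they took 0.0137%, 0.0135% and 0.0485% after FA and 0.0899%, 0.0965% and 0.197% after O3. In both KO tables every O3 library was above every FA library, while in both co-ex tables the exposures overlapped. The intervals cover counting error only, since reads copied by PCR are not independent molecules.

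**Figure D1:**
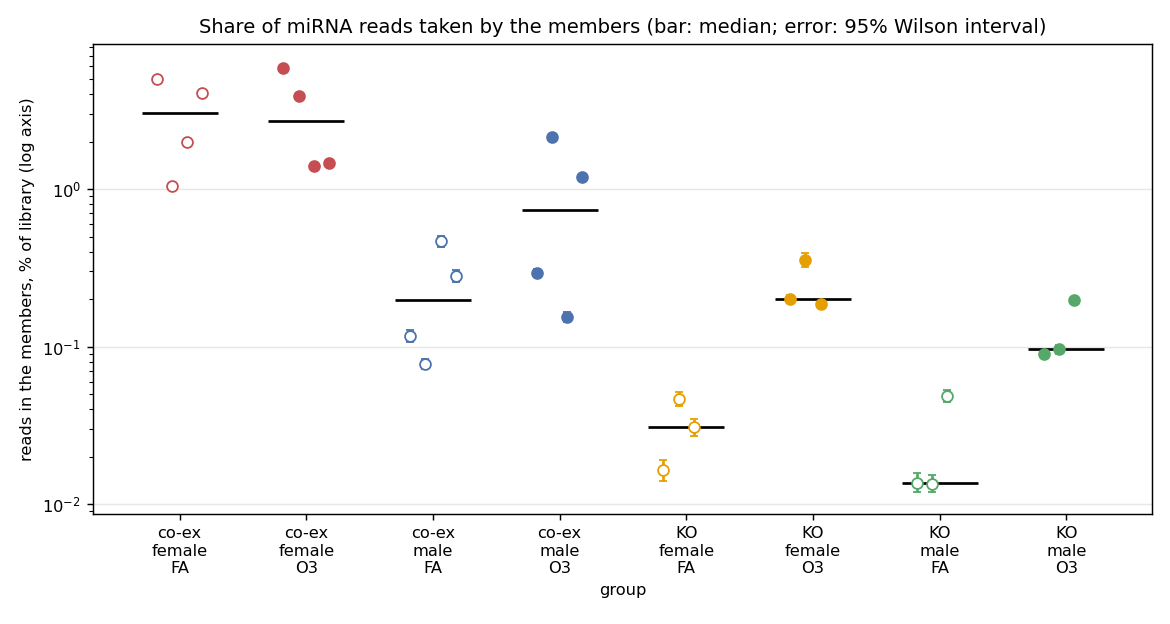
Reads in the 7 members as a percent of all miRNA reads of a library (log axis), by group; open points are FA and filled points O3 libraries, horizontal bars are medians and error bars 95% Wilson intervals. Co-ex females lie between 1.04% and 5.87%, and the KO O3 libraries lie above the KO FA libraries without overlap.

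In KO females, miR-3473e, miR-3470b and miR-3473a were higher after O3. The normalized value (reads of the miRNA over a size factor, as deposited) of miR-3473e was 0, 0 and 11.2 in the FA libraries and 216, 284 and 168 in the O3 libraries. In reads, these values were 0, 0 and 16 against 254, 66 and 218. The exposures did not overlap, and FA libraries 1 and 2 held no read of this miRNA. The group means were 3.72 ± 6.45 (SD, n = 3) and 223 ± 58.3 (SD, n = 3).

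miR-3470b, with its B1-like sequence, had values of 40.6, 79.8 and 90.1 after FA and 521, 1055 and 527 after O3 in KO females. Its FA libraries lay within 2.22-fold of each other and far under the lowest O3 library, so that the mean was 9.99-fold higher after O3. miR-3473a was at 0 in the 3 FA libraries and at 10.2, 73.2 and 8.49 after O3. Against the value of 3 reads in each FA library, its mean was at least 15.4-fold higher. KO female O3 replicate 2, the shallowest KO library with 111080 reads, held the highest value of each of these 3 miRNAs, and miR-3473a rested on 12, 17 and 11 reads.

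In KO females miR-3470a was at 34.4, 148 and 12.6 after FA and at 217, 237 and 138 after O3, with FA replicate 2 inside the O3 range. miR-3473f was at 18.1, 8.79 and 41.2 after FA and at 45.0, 43.1 and 54.0 after O3, a narrow gap without overlap. miR-3471 (0, 0 and 4.89 after FA, 5.09, 0 and 13.1 after O3) and miR-3473b (0, 40.3 and 0 after FA, 0.849, 4.31 and 9.26 after O3) stayed under the filter. They overlapped between the exposures. Every O3 library was above every FA library for 4 of the 5 members tested in KO females, against 19.1% of all miRNAs tested. That share was 7.73% in KO males, where 2 of 6 members did so, 1.48% in co-ex females and 2.24% in co-ex males, where none did. The members were named with their difference between the exposures known. In KO females miR-3473a and miR-3473e passed the filter only through their O3 libraries. These counts therefore describe the tables and test nothing about the members.

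**Figure D2:**
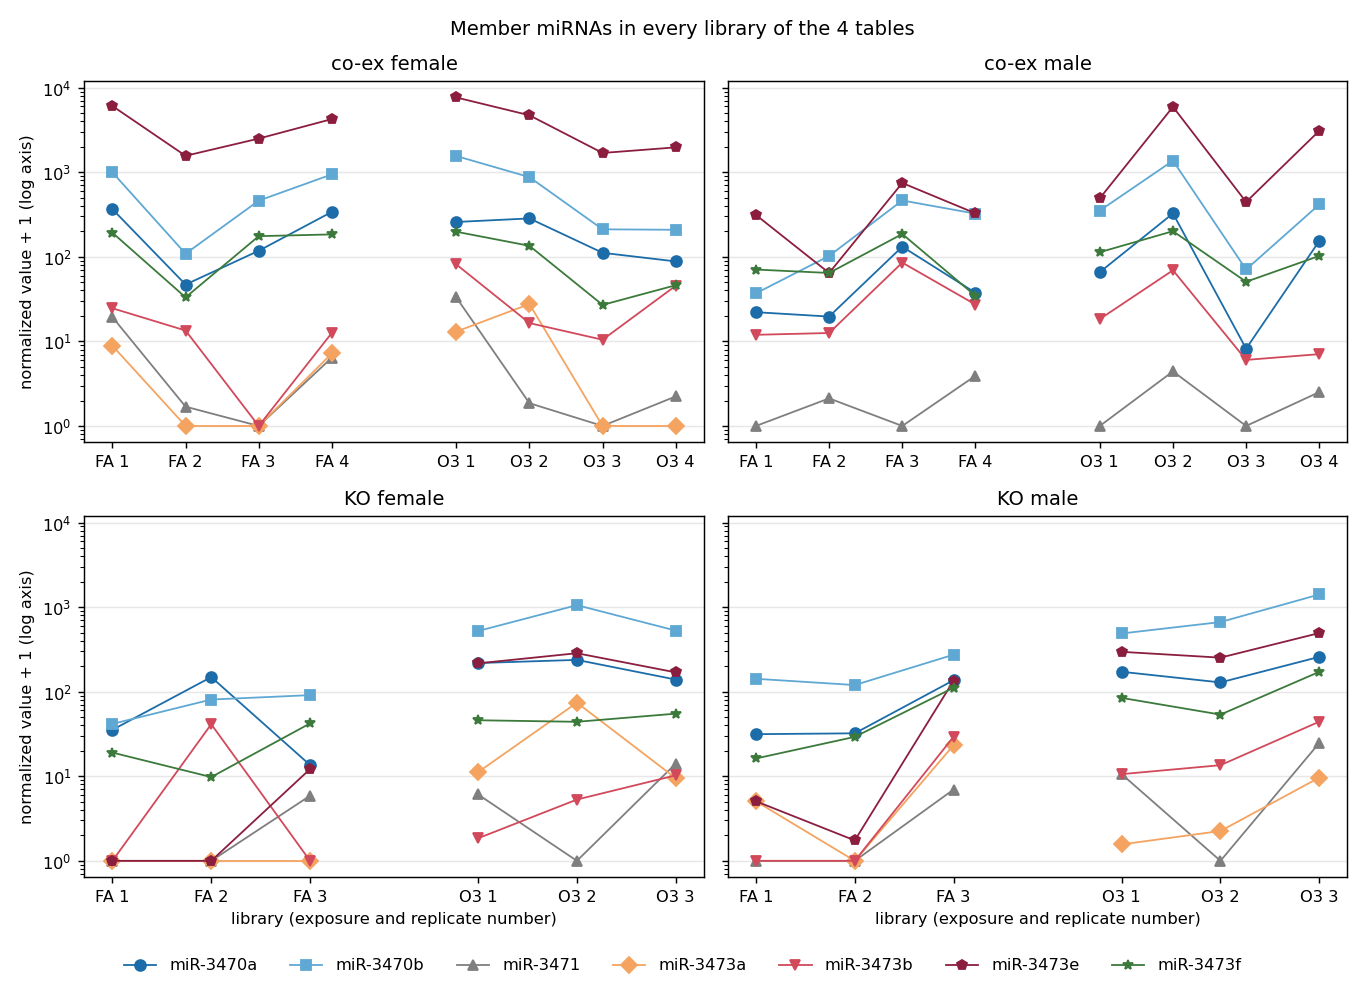
Normalized value plus 1 (log axis) of each member in every library, 1 panel per table, with the FA libraries left and the O3 libraries right; lines join libraries of 1 group for reading only. In co-ex panels miR-3473e is mostly the highest line and the more abundant members are mostly high in the same libraries, while in KO panels miR-3470b is highest in most libraries and miR-3473e moves from 0 or near it up to between 168 and 493 after O3, with KO male FA 3 already at 134.

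Over all 319 miRNAs tested in KO females, limma on log2(value + 1) called 42, or 13.2%, at an adjusted p under 0.1. Of the 5 members tested, 3 were among them, each higher after O3, as were 10% of all miRNAs. At an unadjusted p under 0.05 there were 4 members and 25.7% of all miRNAs. The log2 change was 6.57 ± 1.21 (SE) for miR-3473e (adjusted p of 0.0111), 3.30 ± 0.51 for miR-3470b (adjusted p of 0.00523) and 4.31 ± 1.22 for miR-3473a (adjusted p of 0.0655). It was 2.22 ± 0.89 for miR-3470a and 1.27 ± 0.90 for miR-3473f, which did not pass. miR-3473a and miR-3473e passed the filter on low values through their O3 libraries, so they had to differ, and as the contrast was known when the members were named, these limma adjusted p-values describe the table and test nothing about the members. The median log2 change was 3.30 over the members tested and 0.06 over all 319 miRNAs.

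The call of miR-3473a was lost, with adjusted p between 0.108 and 0.147 from limma, when KO female FA replicate 1, 2 or 3, or O3 replicate 2 or 3, was left out. Those of miR-3470b and miR-3473e were kept without any single library, and miR-3470a was added without FA replicate 2 (3.14, adjusted p of 0.0241 from limma). In the same libraries 8 of the 10 epithelial markers tested were called higher after O3, with a median log2 change of 3.59, and the summed epithelial list was at 1685 to 4627 RPM after FA against 21076 to 36703 after O3. The myeloid list showed no called change. The part of epithelial RNA in the members' change was not tested.

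In KO males the same direction was seen, with 1 FA library near the O3 level. miR-3473e was at 4.06, 0.743 and 134 after FA and at 295, 252 and 493 after O3. miR-3470b was at 141, 119 and 273 after FA and at 487, 665 and 1411 after O3. Neither overlapped, but for miR-3473e FA replicates 1 and 2 rested on 4 reads and 1 read, where replicate 3 had 90 reads.

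miR-3470a was at 30.5, 31.2 and 136 after FA and at 171, 128 and 257 after O3 in KO males, where FA replicate 3 overlapped with O3. miR-3473f was at 15.2, 28.2 and 110.4 after FA and at 83.6, 52.6 and 171 after O3. For all 7 members KO male FA replicate 3 was the highest library of its group. It was also the library with the high epithelial list.

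Over the 440 miRNAs tested in KO males, limma called 4, or 0.909%, and none of the 6 members tested. All 6 members tested had a positive log2 change, with a median of 2.00 against -0.04 over all miRNAs. The other member, miR-3473a, did not pass the filter, and its mean was lower after O3. With no filter, 6 of 7 members had a positive change. miR-3471, miR-3473b and miR-3473e passed the filter mainly through their O3 libraries, which favours a positive change. The share of positive changes over all miRNAs was not counted. These counts therefore describe the table and test nothing about the members. At an unadjusted p under 0.05 there were 3 members, and 7.27% of all miRNAs. The largest changes among these 3 were 4.97 ± 1.51 (SE) for miR-3473e and 2.21 ± 0.57 for miR-3470b, with adjusted p of 0.341 and 0.251 from limma. DESeq2 on the recovered reads called 1 member, miR-3470b, among 14 of 529 miRNAs.

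Without KO male FA replicate 3, limma called 86 of 479 miRNAs and 5 of the 6 members. The log2 change was then 6.81 ± 0.60 for miR-3473e and 2.56 ± 0.40 for miR-3470b, with adjusted p of 1.97e-06 and 0.00049 from limma. It was 2.49 ± 0.45 for miR-3470a, 4.21 ± 1.13 for miR-3473b and 2.08 ± 0.60 for miR-3473f. The number of calls in this table thus rested on a single library. In the fit with all KO male libraries 0 of the 11 epithelial markers tested were called, with a median log2 change of 1.79. Their sum was 2246, 2727 and, in replicate 3, 28327 RPM after FA, and 21663 to 28074 RPM after O3. The part of epithelial RNA in the members' change was not tested.

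In co-ex females the members were abundant after FA already, and the exposures overlapped for each of the 7. miR-3473e was at 6076, 1564, 2502 and 4258 after FA and at 7669, 4721, 1691 and 1969.7 after O3. miR-3470b was at 996, 108, 461 and 944 after FA and at 1556, 875, 211 and 208 after O3. Over the 8 libraries the highest was 4.90 times the lowest for miR-3473e and 14.4 times for miR-3470b.

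miR-3470a was at 365, 46.0, 117 and 339 after FA and at 257, 284, 111 and 87.3 after O3 in co-ex females. miR-3473f was at 192, 32.2, 175 and 183 after FA and at 197, 134, 26.0 and 45.2 after O3. In the plot of values by library FA 1, FA 4, O3 1 and O3 2 were the highest libraries for miR-3470a, miR-3470b and miR-3473e, and 3 of them for miR-3473f. Limma called 1 of 271 miRNAs, or 0.369%, and none of the 6 members tested, whose log2 changes ran from -0.66 ± 0.74 (SE) for miR-3473f to 1.81 ± 1.11 for miR-3473b. None had an unadjusted p under 0.05, against 5.90% of all miRNAs, and edgeR and DESeq2 on recovered reads called none either.

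In co-ex males miR-3473e was at 312, 63.5, 747 and 326 after FA and at 492, 5948, 444 and 3097 after O3. O3 replicates 2 and 4 were high, and replicates 1 and 3 lay within the FA range. miR-3470b was at 36.0, 102, 463 and 323 after FA and at 351, 1369.7, 69.9 and 416 after O3, with overlap. miR-3470a ran from 18.7 to 131 after FA and from 7.20 to 325 after O3, and miR-3473f from 33.6 to 185 and from 49.7 to 200.1.

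Limma called 0 of 312 miRNAs in co-ex males, which is 0%, and so no member. At an unadjusted p under 0.05 there was 1 member of the 5 tested, miR-3473e, with a log2 change of 2.42 ± 0.92 (SE), and 3.53% of all miRNAs. edgeR and DESeq2 called none. After adjustment over all 312 miRNAs miR-3473e was thus not called, with an adjusted p of 0.944 from limma.

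**Figure D3:**
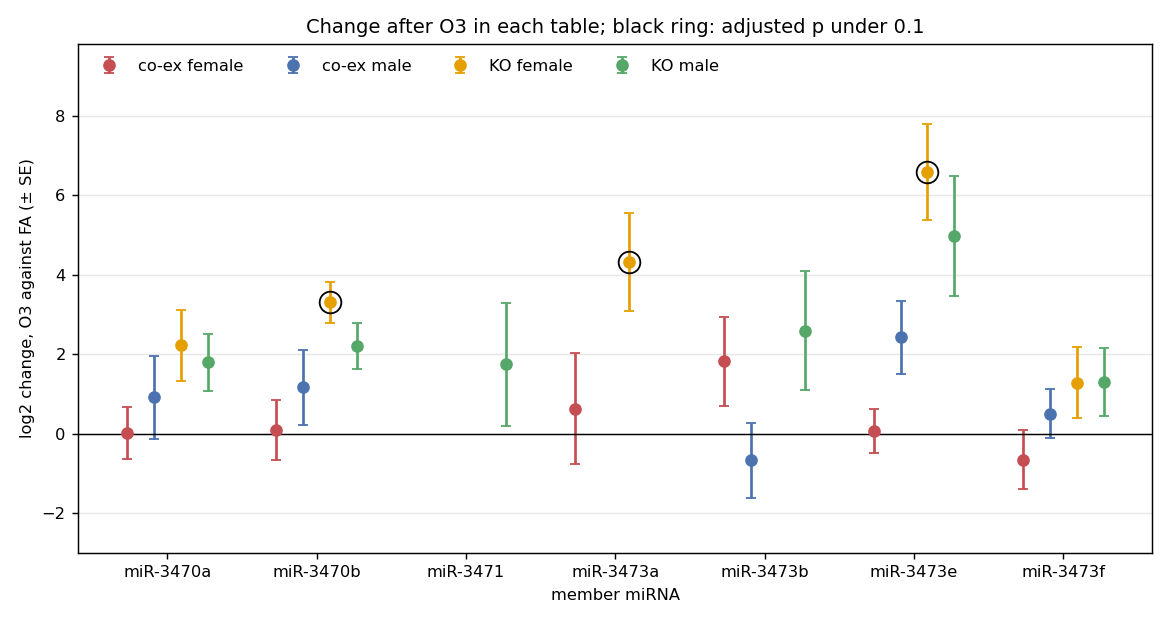
Log2 change after O3 against FA from limma (mean ± SE) for each member tested in each table; black rings mark an adjusted p under 0.1. The 3 ringed points are KO females (miR-3470b, miR-3473a and miR-3473e), the KO tables lie above 0 for each member tested, and the co-ex female points lie near 0 for miR-3470a, miR-3470b and miR-3473e.

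The change after O3 was also compared between genotypes within a sex, by limma on the difference of the changes. These fits use the libraries of the comparisons above and are not further evidence. In females, 21 of 241 miRNAs were called, or 8.71%, and 1 of the 5 members. It was miR-3473e, with a difference of -6.51 ± 1.11 (SE) on the log2 scale (co-ex minus KO) and a limma adjusted p of 0.0016. In KO females miR-3473e passed the filter only through its O3 libraries, so this value describes the tables and tests nothing about it. Over all miRNAs 8.30% were called in that direction, and the median difference was -0.48. In the same test 5 of 10 epithelial markers were called, in the same direction, and their part in the result was not tested. For miR-3470b the difference was -3.21 ± 1.12, with a limma adjusted p of 0.111. It passed, as a second member called, only when libraries were scaled to their totals or when co-ex female FA replicate 2 or O3 replicate 1 was left out. In males 0 of 305 miRNAs were called, or 0%, with 6 at an unadjusted p under 0.05, none of them a member. Between the sexes none was called in co-ex (0 of 249, 8 at an unadjusted p under 0.05) or KO mice (0 of 309, 17 at an unadjusted p under 0.05), no member among them. Every alternative run for these last 3 fits also called no member.

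Levels were then set on one scale, as RPM. The level of miR-3473e was 9249.6 to 39559 in co-ex female FA libraries and 11509.8 to 45905 in co-ex female O3 libraries. It was 191 to 2168 in co-ex males after FA and 1192 to 16176 after O3. In KO females it was 0 to 21.5 after FA and 343 to 594 after O3, and in KO males 0.560 to 91.7 after FA and 219 to 403 after O3. From highest to lowest mean the groups were co-ex female O3, co-ex female FA, co-ex male O3, co-ex male FA, KO female O3, KO male O3, KO male FA and KO female FA. Neighbours in this order overlapped in their ranges, except KO male O3 and KO male FA.

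For miR-3470b the level was 638 to 6674 RPM in co-ex females after FA, 1292 to 9316 after O3, 93.6 to 1345 in co-ex males after FA and 187 to 3725 after O3. In KO females it was 71.8 to 173 after FA and 1035 to 2206 after O3, and in KO males 89.5 to 186 after FA and 414 to 1153 after O3. The O3 libraries of the KO mice thus reached the range of the co-ex libraries for miR-3470b. For miR-3473e they did so only against co-ex males, and they stayed under every co-ex female library.

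Co-ex and KO libraries of the same sex and exposure were compared on whole reads by edgeR. These comparisons, and those between the sexes, share libraries with each other. In females after FA, 83 of 285 miRNAs were called, or 29.1%, and 4 of the 5 members tested, each higher in co-ex, as were 19.6% of all miRNAs. The log2 difference was 11.38 ± 1.44 (SE) for miR-3473e, with an edgeR adjusted p of 0.000848. KO female FA libraries 1 and 2 held no read of it, so the size of that difference depends on the prior count. miR-3473e also passed the filter through its co-ex libraries, so this adjusted p describes these libraries and tests nothing about it. The log2 difference was 4.62 ± 0.79 for miR-3470b (adjusted p of 0.00178 from edgeR), 4.15 ± 0.88 for miR-3473f (adjusted p of 0.00676) and 3.18 ± 0.98 for miR-3470a (adjusted p of 0.0346). For miR-3470a the call was lost without KO female FA replicate 1 (adjusted p of 0.107 from edgeR). In the same comparison 7 of 9 epithelial markers were called higher in co-ex, with a median of 3.08. Their part in the members' difference was not tested.

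In females after O3, 26 of 259 miRNAs were called, or 10%, and 3 of the 6 members, each higher in co-ex, as were 5.41% of all miRNAs. miR-3473e was higher in co-ex by 5.75 ± 0.73 (SE) on the log2 scale, with an adjusted p of 0.00147 from edgeR, miR-3473b by 4.31 ± 1.19 and miR-3473f by 2.60 ± 0.78. The calls of miR-3473b and miR-3473f, with adjusted p of 0.0758 and 0.0893 from edgeR, were lost when any library other than co-ex female O3 replicate 3 was left out, while that of miR-3473e was kept in each case. miR-3473b passed the filter through its co-ex libraries, so its adjusted p describes these libraries and tests nothing about it. Of the 11 epithelial markers 2 were called, both higher in co-ex, with a median of 0.61.

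In males after FA, 8 of 328 miRNAs were called, or 2.44%, and none of the 5 members, although each was higher in co-ex, with log2 differences of 1.02 to 4.36. Members at an unadjusted p under 0.05 numbered 2, against 18.9% of all miRNAs, and DESeq2 called 3 members and 18.1% of all miRNAs. Without KO male FA replicate 3, edgeR called 13.9% of all miRNAs and 3 members, miR-3473b (8.87 ± 1.94, SE), miR-3473e (8.56 ± 1.35) and miR-3473f (3.43 ± 0.92). The KO libraries left then held 4 reads and 1 read of miR-3473e, which passed the filter through its co-ex libraries. In males after O3, 53 of 312 miRNAs were called, or 17%, and 2 of 5 members, each higher in co-ex, as were 9.94% of all miRNAs. They were miR-3473e (4.32 ± 0.86, adjusted p of 0.0121 from edgeR) and miR-3473f (1.76 ± 0.58, adjusted p of 0.0715). The call of miR-3473f was lost with no filter and without KO male O3 replicate 1 or 2 or co-ex male O3 replicate 1. In these comparisons of males the epithelial markers had median log2 differences of -0.95 after FA and -0.89 after O3, where 1 was called lower in co-ex and none higher. Of the red cell markers 3 of 3 were called lower in co-ex after FA, with a median of -4.40, and 2 of 3 after O3, with a median of -2.98. The part of both lists in the members' differences was not tested.

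Between the sexes, co-ex mice after FA had 33 of 238 miRNAs called, or 13.9%, and 3 of the 5 members tested, each lower in males, as were 12.2% of all miRNAs. The log2 difference was -4.50 ± 0.77 (SE) for miR-3473e, with an edgeR adjusted p of 0.00688, -3.30 ± 0.87 for miR-3470a (adjusted p of 0.0397) and -2.64 ± 0.86 for miR-3470b (adjusted p of 0.0801). The call of miR-3470a was lost without co-ex female FA replicate 1 or 4 or co-ex male FA replicate 1 or 2, and that of miR-3470b without any of these or female replicate 3, with library totals and with no filter, while miR-3473e kept its call. The related miRNAs miR-690, miR-709 and miR-1195, listed further below, were called lower in males too. Their log2 differences were -4.42, -5.22 and -4.45, with adjusted p of 0.0104, 0.00926 and 0.00688 from edgeR. The related miR-3473d, at 0.09, was not called. The co-ex female libraries held 41542 to 488993 reads and those of co-ex males 126398 to 891030, and 3 of 9 epithelial markers were also called lower in males after FA, as was the 1 red cell marker tested, with a log2 difference of -4.13. The part of depth, epithelial and red cell RNA in the members' difference between the sexes was not tested. Sex cannot be told apart from table and library codes in these comparisons.

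After O3, co-ex mice had 19 of 244 miRNAs called between the sexes, or 7.79%, and none of the 5 members, whose log2 differences ran from -1.88 to -0.89, with 1 at an unadjusted p under 0.05, against 24.6% of all miRNAs. DESeq2 called 1 member there and 18.1% of all miRNAs. With a block for the replicate number edgeR called 3 members, each lower in males, and 25.8% of all miRNAs. Same-numbered libraries deviated from their group means there with r of 0.0564 to 0.400. The labels do not say whether the numbers pair the libraries. Leaving out co-ex male O3 replicate 2, the highest library of its group for each of the 6 members listed, edgeR called 4 members and 27.7% of all miRNAs. In KO mice edgeR called 0 of 301 miRNAs after FA and 0 of 311 after O3, which is 0%. No member had an unadjusted p under 0.05 after FA, and 2 did after O3, miR-3470a (-1.20 ± 0.39) and miR-3473a (-4.09 ± 1.39). At an unadjusted p under 0.05 there were 23 miRNAs after FA and 28 after O3. DESeq2 called 11 miRNAs and no member after FA, and 7 miRNAs after O3 with 1 member, miR-3473a.

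The balance of the members within a library differed between the genotypes. For each read of miR-3470b there were 4.51 to 14.5 reads of miR-3473e in co-ex females and 0.625 to 8.65 in co-ex males. In KO females there were 0 to 0.414, and in KO males 0.00625 to 0.606. Every KO library was thus under every co-ex library, but narrowly, at 0.606 in KO male O3 replicate 1 against 0.625 in co-ex male FA replicate 2. The KO FA ratios rested on 0, 0 and 16 reads of miR-3473e in females and 4, 1 and 90 in males. Genotype cannot be told apart from table and library codes here. How many other pairs of miRNAs separate the libraries in this way was not counted. A ratio within a library does not depend on its depth scaling.

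After O3 the ratio was 0.414, 0.269 and 0.319 in KO females and 0.606, 0.379 and 0.349 in KO males, where after FA it was 0, 0 and 0.124 and 0.0288, 0.00625 and 0.492. In KO females the ratio was higher in each O3 than in each FA library. In KO males FA replicate 3 lay inside the O3 range. The ratio of miR-3470b to miR-3470a was 0.540 to 9.70 over all 28 libraries. miR-3473e was the most abundant member in 15 of the 16 co-ex libraries and in none of the 12 KO libraries.

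**Figure D4:**
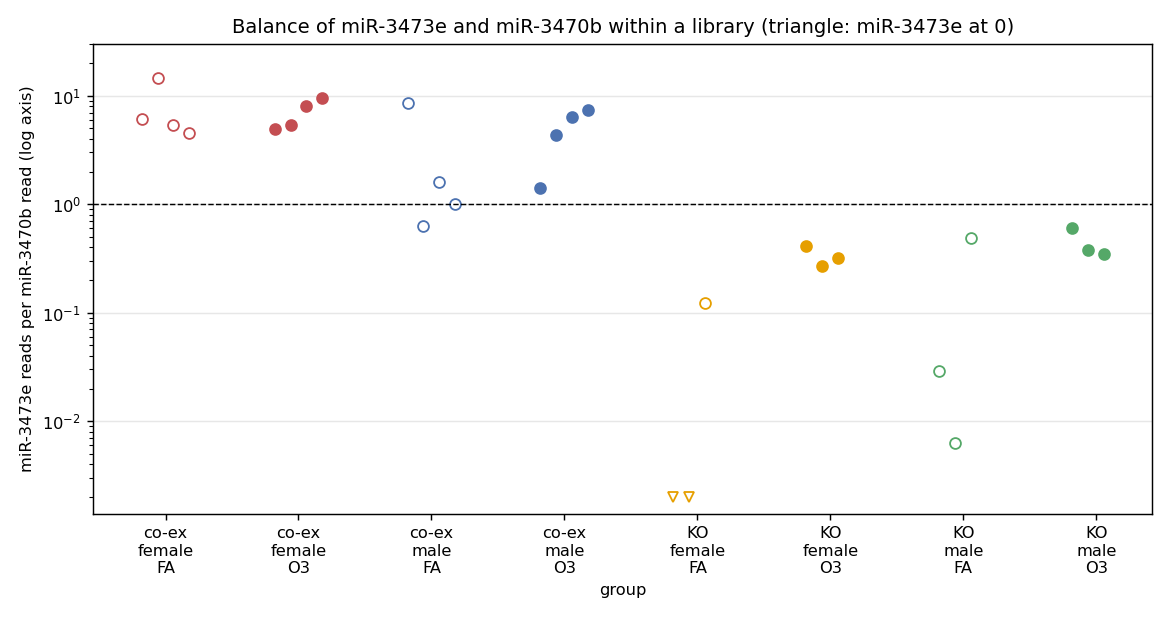
Reads of miR-3473e for each read of miR-3470b (log axis) by group, 1 point per library, open for FA and filled for O3; triangles mark 2 KO female FA libraries without a read of miR-3473e, and the dashed line a ratio of 1. The KO libraries lie at 0.606 or under and the co-ex libraries at 0.625 or above.

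Since moving together was part of how the members were picked, their covariation is a description. Over the 8 libraries of co-ex females, Pearson r between log2(value + 1) of miR-3470b and miR-3473e was 0.96 (Spearman rho 0.95), and between miR-3470a and miR-3470b 0.94 (rho 0.86). In co-ex males (8 libraries) these were 0.71 (rho 0.86) and 0.89 (rho 0.90). In KO females (6 libraries) they were 0.95 (rho 0.93) and 0.72 (rho 0.60), and in KO males (6 libraries) 0.91 (rho 0.94) and 0.91 (rho 0.77). The libraries of a table were normalized together, and each table holds both exposures.

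Among all pairs of listed members the median r was 0.72, 0.63, 0.53 and 0.82 in the co-ex female, co-ex male, KO female and KO male tables, against 0.00, 0.00, 0.00 and -0.01 over all pairs of miRNAs tested. With the FA and O3 means taken out, the medians were 0.79, 0.64, 0.07 and 0.83. Within an exposure, the pairs thus kept a positive median in 3 of the tables and one near 0 in KO females, and no test was made. On that scale the highest 10% of all pairs of miRNAs tested began at r of 0.66, 0.64, 0.72 and 0.85. With exposure means left in, r was also taken without the 2 libraries farthest from the median of a pair's first member. The median r of the member pairs was then 0.71, 0.29, 0.51 and 0.60. miR-3473b, which shares its seed and first 18 bases with miR-3473e, had r of 0.40, 0.31, -0.06 and 0.94 with it in the same order of tables, under the median of all pairs in 3 tables and above it in KO males, a difference that was not tested.

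The level of the 4 members tested in every table, miR-3470a, miR-3470b, miR-3473e and miR-3473f, centred on the mean of each table and averaged, was compared with 226 other miRNAs over the 28 libraries. The 5 most alike were miR-1961 (r = 0.93), miR-690 (r = 0.93), miR-712-5p (r = 0.90), miR-714 (r = 0.89) and miR-6240 (r = 0.88), where the median r of all 226 was -0.05. The r of miR-690 was between 0.88 and 0.99 within each table.

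The same averaged level ran against the total of reads, with r of -0.78 in co-ex females, -0.48 in co-ex males, -0.69 in KO females and -0.38 in KO males (rho -0.81, -0.64, -1.0 and -0.14, n = 8, 8, 6 and 6). Against the summed epithelial list r was 0.97 in KO females and 0.92 in KO males (rho 0.89 and 0.43), but -0.31 in co-ex females and 0.52 in co-ex males (rho -0.26 and 0.33). The part of depth and of epithelial RNA in the members' levels was not tested.

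**Figure D5:**
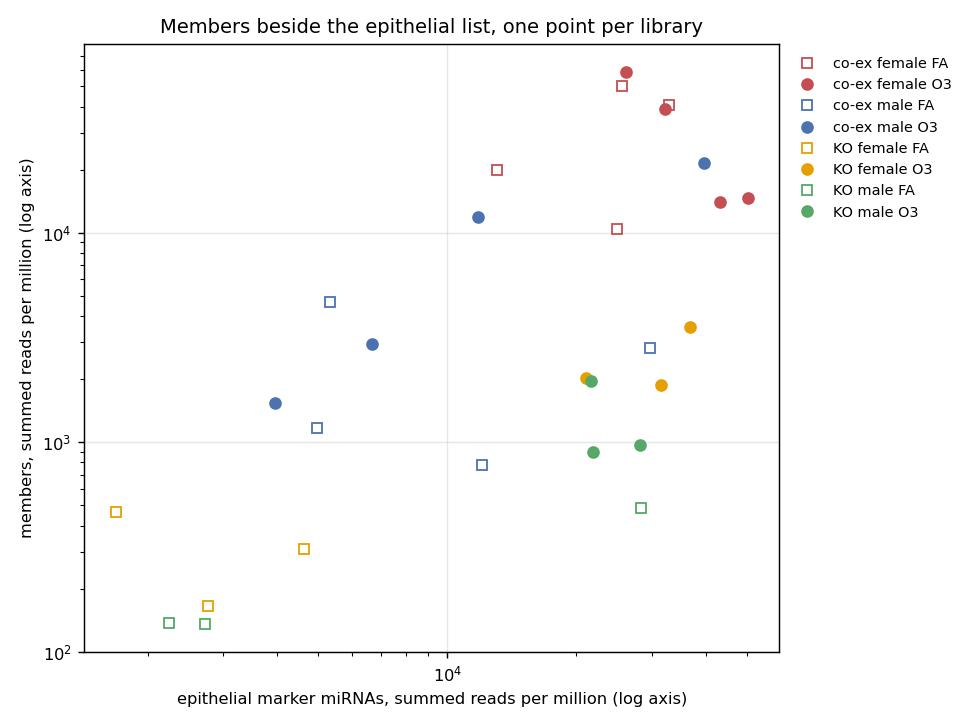
Summed RPM of the 7 members against those of the 11 epithelial markers (both log axes), 1 point per library, open squares for FA and filled circles for O3. KO FA libraries lie at lower left apart from KO male FA 3, at 28327 on the epithelial axis, and the co-ex female libraries lie above all KO libraries on the member axis.

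The rarer members rested on few reads. miR-3471 had at most 22 reads in any library and none in 12 of the 28, and only in KO males did it pass the filter, at 0, 0 and 5.97 after FA and 9.60, 0 and 23.8 after O3. miR-3473a had at most 31 reads. Unlike in KO females, its mean in KO males was lower after O3, at 4.06, 0 and 22.4 after FA and 0.565, 1.25 and 8.65 after O3, on 0 to 15 reads. The exposures overlapped there, and only FA replicate 3, at 22.4, lay above the O3 range. miR-3473b reached 80 reads, and in co-ex females it was at 23.7, 12.5, 0 and 11.6 after FA and at 80.4, 15.5, 9.46 and 44.6 after O3, with overlap. With all libraries in the fit, neither miR-3471 nor miR-3473b was called between O3 and FA in a table where it was tested.

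A list of 6 related miRNAs (miR-3473c, miR-3473d, miR-3473g, miR-690, miR-709 and miR-1195) had 4 tested in each co-ex table and in KO males, none called between O3 and FA, and 3 tested in KO females, of which 1 was called. It was miR-690. This miRNA, whose hairpin holds the stretch UGGAGAGAUGGCUC that miR-3473a, miR-3473b and miR-3473e have in common, was at 15.8, 16.8 and 26.5 in KO females after FA and at 194, 336 and 234 after O3, with a log2 change of 3.62 ± 0.62 (SE) and a limma adjusted p of 0.00799. The stretch was in 6 of 1005 mouse hairpins. miR-1195, whose first 18 bases were in transcripts of 1215 genes, more than for any other miRNA, was in KO females at 269, 365 and 383 after FA and 194, 168 and 119 after O3, a log2 change of -1.09 ± 0.41 with a limma adjusted p of 0.144. miR-3473d was at 0, 0.732 and 0 after FA and at 11.9, 0 and 13.9 after O3 in KO females, under the filter.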

How the data were processed

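Small RNA libraries were made from AM with a NEXTflex kit and sequenced on an Illumina instrument. According to the study's methods, reads were filtered with CASAVA, trimmed with the FASTX-Toolkit, counted with Chimira and tested with edgeR and TCC. The genome build and miRBase release are not given in the sources used here. The deposited values are a signal per miRNA, the read count divided by a size factor that the authors computed in each table separately. The fold changes, p-values and ranks of the authors were not used. Every value was a whole multiple of 1 step (tolerance 0.001 reads), so whole reads were recovered for 100% of values in 28 libraries. In 5 of them low values were too few for the standard test of the step.

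O3 was compared with FA within each table by limma 3.58.1 (trended variances) after adding 1 and taking log2. A miRNA entered when its value was 5 or more in no fewer libraries than the smaller of both groups had, with Benjamini-Hochberg adjustment over all tested miRNAs and a threshold of 0.1. Fold changes on that scale understate changes of low miRNAs. Differences of changes used the same model over both tables. Genotypes and sexes were compared by edgeR 4.0.16 (quasi-likelihood, TMM, filterByExpr) on recovered reads, because the deposited values are not counts. That test returns no SE. The SE printed with its log2 differences is the absolute difference over the square root of its F statistic, an approximation. DESeq2 1.42.0, another pseudocount, no filter, library totals, a replicate block and each library left out were tried as alternatives. R 4.3.3, Python 3.11.15, pandas 2.3.3 and scipy 1.17.1 were used, and the scripts were tested on simulated data. Pairs of libraries with the same number did not deviate together throughout (r of -0.296 to 0.400), so they were not paired in the main fits. The labels speak of groups of 4 animals but tie no library to an animal, so p-values measure the spread between these libraries. All 7 members are named, the miRNAs most alike are the 5 with the highest r, and members, relatives and marker lists were chosen with earlier results of these data known. Sequences came from the RefSeq miRNA table and matches and positions from GENCODE M21 (GRCm38). The position of a hairpin does not show where a read came from.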

Additional observations from a re-analysis of the deposited data

Results flagged for a closer look

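Dixon's ratio, the gap to the nearest library over the whole range, was taken for 30 sets of values. A set was the values of 1 member, or the members' share of reads, in 1 of the 4 co-ex groups. In 3 sets 1 library lay far from the others. Chance marks about 1 in 20 independent sets, but these sets share libraries and the members vary together, so the 2 rates cannot be compared. The ratio was 0.841 for miR-3470a in co-ex males after FA, where replicate 3 was highest, 0.962 for miR-3471 in co-ex females after O3, where replicate 1 was highest on 8 reads, and 0.892 for miR-3473f in co-ex females after FA, where replicate 2 was lowest. Replicate 2 was the deepest co-ex female library and replicates 3 and 1 named here were the shallowest of their groups. The groups of 3 KO libraries were not examined in this way.

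The change of miR-3473e after O3 differed between co-ex and KO females by -6.51 on the log2 scale, where the lowest co-ex FA library held 9249.6 RPM and the highest KO FA library 21.5. In KO females miR-3473e passed the filter only through its O3 libraries, and the members were named with the change after O3 known. The difference is therefore a description.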

How the results depend on the processing

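In the 4 comparisons of O3 with FA, the number of members called was the same within 1.5-fold under every alternative in co-ex females and co-ex males (0 called) and in KO females (3 called, 2 or 3 under alternatives). In KO males it went from 0 to 1 with DESeq2, and leaving out single libraries gave 0 to 5, the 5 without KO male FA replicate 3. The difference between co-ex and KO females in the change after O3 went from 1 to 2 members with library totals and to between 1 and 2 without single libraries. For co-ex against KO, males after FA went from 0 to 3 with DESeq2 (0 to 3 without single libraries). Males after O3 went from 2 to 1 with no filter and to 1 with the replicate block (1 to 2 without single libraries). Females after FA stayed between 3 and 5, and females after O3 gave 1 to 4 without single libraries. For males against females in co-ex mice, leaving out single libraries gave 1 to 4 after FA and 0 to 4 after O3, where DESeq2 called 1 and the replicate block 3 instead of 0. In KO mice after O3, DESeq2 called 1. The cause of these shifts was not tested. The labels do not say whether the replicate numbers pair the libraries, and the correlations cannot settle it. Same-numbered libraries deviated from their group means with r of -0.296 to 0.400 (0.0564 to 0.400 between the sexes in co-ex mice after O3). The replicate block changed no other count by over 1.5-fold.

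The log2 change of miR-3470a after O3 in co-ex females, 0.02, turned to -0.22 with edgeR and -0.24 with DESeq2. Leaving out single libraries moved it between -0.58 and 0.41, that of miR-3470b between -0.61 and 0.50, miR-3473e between -0.34 and 0.39 and miR-3473a between -0.26 and 1.33. No log2 change that was called turned its sign. Without the most abundant member the median share fell to 0.752% in co-ex females after FA, 0.0134% in KO females after FA and 0.0981% in KO females after O3. The median r among members in KO females was 0.0666 with exposure means taken out, an alternative chosen after seeing the data. Over all miRNAs, DESeq2 called 69 in KO females against 42, and for co-ex against KO 65 against 8 in males after FA, 64 against 26 in females after O3 and 105 against 53 in males after O3. It also called 14 against 4 in KO males (edgeR and the replicate block 1), and between the sexes 61 against 33 in co-ex mice after FA and 60 against 19 after O3 (the replicate block 63, no filter 10). The difference of changes in females gave 21, 32 with library totals and 14 with the replicate block. Co-ex against KO males after FA gave 15 with library totals and 0 with the replicate block. With library totals the higher calls were 38 of 46 against 32 of 42 in KO females, and for co-ex against KO 19 of 29 against 14 of 26 in females after O3, 12 of 15 against 3 of 8 in males after FA and 50 of 69 against 31 of 53 in males after O3. Scaling to library totals moved the median log2 difference of all miRNAs by over 0.1 in several fits, most in males after FA (co-ex against KO), from -0.37 to 0.25. The most reads in a library were 22 for miR-3471, 31 for miR-3473a and 80 for miR-3473b.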
